A study of Homo sapiens with 4 samples.

Results

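The 10 genes CCND1, CCND2, CCND3, CDK4, CDK6, CDKN1A, CDKN1B, CDKN2A, CDKN2B and RB1 encode the D-type cyclins, their kinase partners, the inhibitors of these kinases and the retinoblastoma protein. Open chromatin at these genes was taken from an ATAC-seq experiment, which uses a method that marks accessible DNA by insertion of sequencing adapters with the Tn5 transposase. The cells were A375, a long-established melanoma cell line of human origin. A listed region was assigned to a gene if it overlapped the RefSeq span of that gene extended by 10 kb on both sides, a rule that uses position and no measured value. This gave 56 of the 125986 regions in the authors' deposited table, 1 of them shared by CDKN2A and CDKN2B. Of the 4 libraries, 2 came from cells given 1 mM octanoate, a medium-chain fatty acid, and 2 from cells given its vehicle isopropanol, in both groups for 48 h. All came from the 1 line in the same medium, and nothing in the labels says whether the libraries of a group came from separate cultures, so p-values measure the spread between libraries, which may be technical. Coordinates are those of the table (hg38 per the submitters' notes), counted from 1, and exons and introns were not analysed here. The table holds no value for a single library. Values per region are therefore the authors' mean signal over the 4 libraries and their log2 fold change of octanoate over vehicle.

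In the G1 phase, D-type cyclins accumulate in response to growth signals and activate CDK4 and CDK6, which phosphorylate the retinoblastoma protein RB1 and so release E2F transcription factors that drive entry into S phase. Inhibitors of the INK4 family, encoded by CDKN2A and CDKN2B, bind CDK4 and CDK6 and block their pairing with cyclin D. The CIP/KIP proteins p21 (CDKN1A) and p27 (CDKN1B) bind cyclin-CDK complexes, those of CDK4 and CDK6 included, and inhibit mainly those of CDK2. Loss of CDKN2A and activity of cyclin D with CDK4 or CDK6 are well known in melanoma.

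As a check of the cell type, regions within 1 kb of a start, or of either end of the span for the 10 genes with no start in the RefSeq promoter table, were found for 4 of 6 melanocytic lineage genes (SOX10, MITF, PMEL and DCT, not MLANA and TYR) and for 0 of 3 endothelial genes. They were also found for 1 of 3 keratinocyte genes (TP63), 1 of 3 epithelial genes (KRT8) and 2 of 3 leukocyte genes (CD3E and SPI1), and their part in the results was not tested. For genes with a start in that table, the mean normalized read count of the strongest such region was 168 at MITF, 30.0 at DCT, 15.7 at TP63 and 77.5 at KRT8. For genes judged by both ends, where the region may lie at the 3′ end or belong to a neighbour, it was 34.2 at PMEL, 15.7 at SOX10, 70.1 at CD3E and 31.0 at SPI1. A region assigned to CDK2, a gene of the further list below, has the same mean as the PMEL region, so PMEL is weak evidence of the lineage. Per the labels, sequencing gave 40 to 50 M paired-end reads per library on average, and the depth of each library is unknown here.

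The sequences of the starts are shown first, because the strongest member region and 5 of the 10 tested ones lie there. RefSeq promoter windows were matched for 8 of the 10 genes, with 12 windows in all, and 9 of the 12 lay wholly inside a listed region. Printed here are the bases just upstream of 7 starts (GRCh38.p14, 5′ to 3′ on the strand of the gene), chosen to cover both kinases, both CIP/KIP genes and the CDKN2A and CDKN2B locus, whose 2 CDKN2B starts lie 8 bp apart and share a window. Each holds 250 bases, except CDKN2B with 242. In CDK4 the capitals mark E-boxes (CACGTG), and in the others they mark GC boxes (GGGCGG on either strand).
CDK4, chr12:57752311-57752560, minus strand: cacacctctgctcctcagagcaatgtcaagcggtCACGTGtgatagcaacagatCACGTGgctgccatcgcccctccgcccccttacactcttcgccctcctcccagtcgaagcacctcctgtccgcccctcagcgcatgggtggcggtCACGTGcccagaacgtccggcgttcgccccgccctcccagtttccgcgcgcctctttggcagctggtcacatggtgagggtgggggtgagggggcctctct
CDK6 outer start, chr7:92836574-92836823, minus strand: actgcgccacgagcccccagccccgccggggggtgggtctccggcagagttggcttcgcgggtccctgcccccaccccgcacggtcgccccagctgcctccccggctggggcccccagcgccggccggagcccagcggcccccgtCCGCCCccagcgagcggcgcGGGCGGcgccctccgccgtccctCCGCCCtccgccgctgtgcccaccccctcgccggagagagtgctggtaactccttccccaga
CDKN1A, chr6:36678464-36678713, plus strand: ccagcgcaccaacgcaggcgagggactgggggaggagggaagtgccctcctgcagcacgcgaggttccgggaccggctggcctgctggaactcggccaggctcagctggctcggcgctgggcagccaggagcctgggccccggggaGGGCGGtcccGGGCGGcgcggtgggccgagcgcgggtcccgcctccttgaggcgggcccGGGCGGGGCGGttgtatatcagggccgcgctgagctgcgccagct
CDKN1B, chr12:12717118-12717367, plus strand: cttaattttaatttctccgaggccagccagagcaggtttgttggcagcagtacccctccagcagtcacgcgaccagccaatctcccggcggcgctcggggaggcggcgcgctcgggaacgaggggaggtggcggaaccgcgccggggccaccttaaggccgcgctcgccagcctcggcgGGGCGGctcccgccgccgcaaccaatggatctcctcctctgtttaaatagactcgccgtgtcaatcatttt
CDKN2A inner start (INK4A), chr9:21974858-21975107, minus strand: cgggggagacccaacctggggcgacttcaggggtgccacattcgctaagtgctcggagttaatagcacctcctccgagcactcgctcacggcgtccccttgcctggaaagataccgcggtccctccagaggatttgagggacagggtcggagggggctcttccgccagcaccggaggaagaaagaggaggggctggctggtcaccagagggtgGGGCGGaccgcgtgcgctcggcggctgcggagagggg
CDKN2A outer start (ARF), chr9:21995325-21995574, minus strand: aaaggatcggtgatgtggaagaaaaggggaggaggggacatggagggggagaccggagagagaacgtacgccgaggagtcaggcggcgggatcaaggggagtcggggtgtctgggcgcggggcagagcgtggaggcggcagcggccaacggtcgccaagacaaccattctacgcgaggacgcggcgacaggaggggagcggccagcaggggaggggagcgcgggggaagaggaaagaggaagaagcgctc
CDKN2B, chr9:22009314-22009555, minus strand: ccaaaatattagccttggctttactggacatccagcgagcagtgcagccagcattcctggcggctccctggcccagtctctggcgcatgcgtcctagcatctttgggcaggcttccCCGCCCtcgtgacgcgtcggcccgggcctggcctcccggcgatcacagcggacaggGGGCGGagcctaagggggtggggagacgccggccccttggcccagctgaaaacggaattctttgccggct

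The GC content of the 12 member windows ran from 36.8% at the inner RB1 start to 80.0% at the outer CDK6 start, with a median of 66.8%, against a median of 58% over all RefSeq promoter windows of 250 bases. They held 0 (RB1) to 30 CpG dinucleotides (outer CDK6 start), with a median of 23.5, against a median of 11 over all windows. In the 7 printed windows GC boxes numbered 4 at CDKN1A, 3 each at CDK4 and the outer CDK6 start, 2 at CDKN2B, 1 each at CDKN1B and the inner CDKN2A start, and 0 at the outer CDKN2A start. The most in any member window was 5, in a CCND3 window that is not printed. A GC box was present in 8 of the 12 member windows, against 42.6% of all 35097 promoter windows. The 3 E-boxes of CDK4, the motif of MYC and related factors, were the only ones in the 12 member windows, and 6.34% of all windows held at least 1. CDKN1B held 2 CCAAT boxes (CCAAT on either strand), a motif found in 3 of the 12 member windows and 32% of all windows. The E2F motif TTTNNCGC and the TATA box TATAAA, searched on both strands, were in 0 of the 12 member windows, and the AP-1 motif TGANTCA was in 1, the inner RB1 window, which is not printed. They were present in 5.92%, 10.7% and 6.57% of all windows. Matches of different motifs overlapped at 0 positions in the printed windows, and GC boxes overlapped each other at CDKN1A alone. These matches are letters in a window and were not related to any fold change.

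No region of the 10 genes passed the threshold in the octanoate comparison. Of the 10 tested member regions, 0 reached an adjusted p under 0.05 by DESeq2 with Benjamini-Hochberg adjustment in the authors' deposited table, against 1.02% of the 11185 tested regions. All 114 regions behind that share were higher with octanoate. At an unadjusted p under 0.05 the count in that table was also 0 of the 10 tested regions, against 14.9% of tested regions, and 0 of all 56 member regions, against 3.76% of nuclear regions. Split by direction at that unadjusted p, 14.8% of tested regions were higher and 0.107% lower. Tested regions are those whose mean reached 63.8 normalized reads, for which the authors' adjusted p is a Benjamini-Hochberg value. The other 46 member regions, for which the table lists an adjusted p of 1 beside the unadjusted p, are called not tested, and CCND1, CCND2, CCND3, CDKN2A and CDKN2B had no tested region. The smallest p of any member region in the authors' deposited table was 0.0812, downstream of CCND2, and the smallest adjusted p was 0.635, at the CDKN1B start.

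Log2 fold changes of the member regions lay lower than those of the table as a whole. Their median was 0.039, computed from the authors' deposited table, against 0.23 over all 125985 nuclear regions and 0.21 over the 73537 regions within 10 kb of any protein-coding gene. Of the 56, 24 in the authors' deposited table had a log2 fold change below 0, against 27.9% of nuclear regions, and 46 of the 56 lay below the median of all nuclear regions. The 10 tested member regions ran from -0.21 to 0.14 in the authors' deposited table, so each lay below the tested median of 0.19, and 5 of them were below 0, against 14.3% of tested regions. CDK6 supplied 25 of the 56 regions (44.6%). The median was 0.095 over the 31 regions left without it. Regions of 1 gene share their locus and are not replicates, and whether the genes differ from other genes was not tested.

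**Figure D1:**
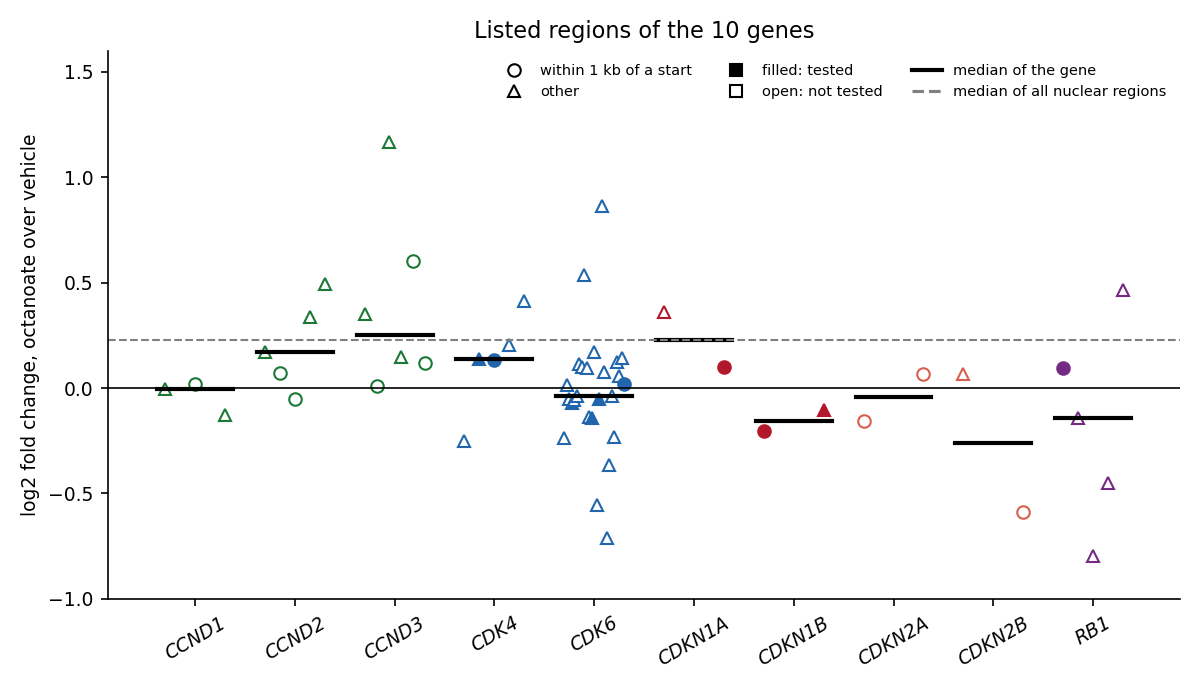
Each point is 1 listed region of the gene on the x axis, and the y axis is the authors' log2 fold change of octanoate over vehicle. Circles lie within 1 kb of a start, triangles elsewhere, filled symbols were tested, black bars are medians per gene, and the dashed line is the median of all nuclear regions (0.23). Tested points lie between -0.21 and 0.14, and CDK6 holds 25 of the points. The region shared by CDKN2A and CDKN2B is drawn for both.

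The same order was seen at each level of signal. Among regions with a mean under 10 normalized reads, the median log2 fold change was 0.078 over 10 member regions and 0.27 over 52739 nuclear regions. From 10 to 20 reads it was 0.073 over 18 member regions against 0.23, and from 20 to 40 reads 0.021 over 13 against 0.23. From 40 to 63.8 reads it was 0.011 over 5 member regions against 0.20. Among tested nuclear regions the medians were -0.016 over the 10 members and 0.19 over all 11184. The member median was below that of all regions in each of these 5 classes.

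**Figure D2:**
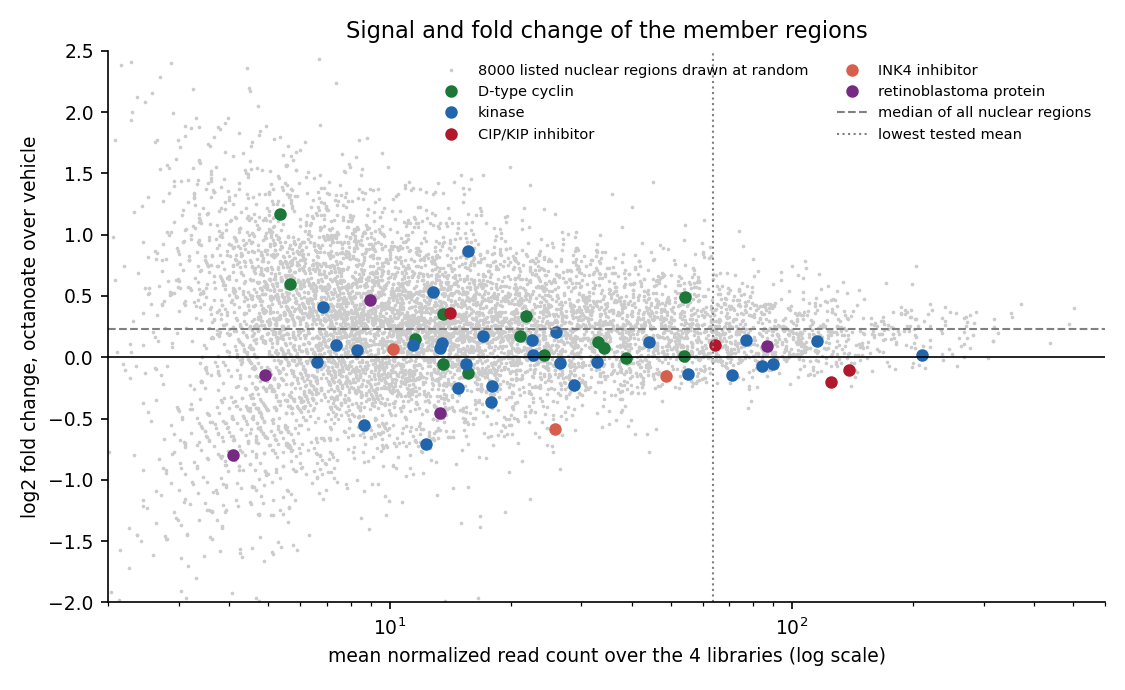
The x axis gives the authors' mean signal in normalized reads on a log scale and the y axis the authors' log2 fold change of octanoate over vehicle. Coloured points are the member regions by role, grey points are 8000 nuclear regions drawn at random, and grey points beyond the axes are not shown. Member points narrow towards the right with the grey cloud and lie mostly below the dashed median of 0.23.

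The D-type cyclins, the growth-responsive subunits of the kinases, had 14 regions, 0 of them tested, and their median log2 fold change was 0.13. CCND1 spans 69641156 to 69654474 on chromosome 11 and had 3 regions. The region over its start (69640839 to 69641385) had a mean of 24.1 normalized reads and a log2 fold change of 0.021 with a standard error (SE) of 0.44 in the authors' deposited table. The strongest CCND1 region, 1.63 kb upstream of the start, had a mean of 38.8 and a log2 fold change of -0.0037 (SE 0.33) in the authors' deposited table. The third lay inside the gene, at -0.13 in that table. All 3 lay close to 0, and their 95% intervals spanned at least -0.66 to 0.65, so a change of 1.57-fold in the strongest region was within its error.

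CCND2 spans 4273762 to 4305353 on chromosome 12 and had 5 regions, the first 3 of which overlap the annotated span of the antisense gene CCND2-AS1. The region over the start (4273616 to 4274175) had a mean of 13.6 and a log2 fold change of -0.053 (SE 0.56) in the authors' deposited table. Its neighbour 849 bp upstream of the start had 0.073 at a mean of 34.1 in the authors' deposited table. The highest value at CCND2 belonged to its strongest region, past the 3′ end (4307698 to 4308471), with a mean of 54.3. There the log2 fold change was 0.49 (SE 0.28, 95% interval -0.061 to 1.05, unadjusted p 0.0812) in the authors' deposited table, which is 1.41-fold. Relative to the tested median it was 0.31 (unadjusted p 0.278). The start and the downstream region differed in value, but their intervals overlapped widely, and the difference was not tested.

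CCND3 spans 41934933 to 42050035 on chromosome 6, has 4 annotated starts and had 6 regions, all with a log2 fold change above 0. The strongest, over an inner start (41941368 to 41942390), had a mean of 54.0 and a log2 fold change of 0.011 (SE 0.28) in the authors' deposited table. At the outer start the region 42050286 to 42051053, upstream of CCND3 and within the span of TAF8, had 0.12 at a mean of 33.0 in the authors' deposited table. A weak region in the gene body had the highest value of all 56, 1.17, at a mean of 5.34 and a standard error of 0.96 in the authors' deposited table. Its interval ran from -0.72 to 3.05, so the value cannot be told from 0.

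The kinases CDK4 and CDK6 phosphorylate RB1 and had 30 regions, of which 6 were tested and 14 were below 0, and the median over the 30 was 0.019. CDK4 spans 57747727 to 57752310 on chromosome 12 and had 5 regions. The region over its start (57751876 to 57753214), which holds the printed window with the 3 E-boxes, had a mean of 116 and the second highest signal per kb of all member regions, 86.4 normalized reads. Its log2 fold change was 0.13 (SE 0.20, adjusted p 0.793) in the authors' deposited table, with a 95% interval of -0.26 to 0.53. The other tested region (57744418 to 57745641) lies downstream of CDK4 within the span of TSPAN31, and it had 0.14 with a standard error of 0.24 (adjusted p 0.822) in the authors' deposited table. The remaining 3, which overlap the spans of AGAP2 and MARCHF9, were not tested and ran from -0.25 to 0.41 in the authors' deposited table. Both tested CDK4 regions thus lay just below the tested median of 0.19.

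CDK6 spans 92604921 to 92836573 on chromosome 7 and held more regions than any other member. The region over both of its starts (92832848 to 92837278) was the strongest of all 56, with a mean of 211 normalized reads over 4431 bp, and it holds the printed CDK6 window. Its log2 fold change was 0.021 (SE 0.15, adjusted p 0.962) in the authors' deposited table. This was the most precise value of the set, with a 95% interval of 0.83-fold to 1.24-fold.

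Of the 24 other CDK6 regions, 13 were below 0, and their median log2 fold change was -0.040. The 3 tested ones lay 119 to 203 kb into the gene. Of these, the region 92716910 to 92718834 had a mean of 89.8 and a log2 fold change of -0.054 (SE 0.22, adjusted p 0.935) in the authors' deposited table. The region 92698124 to 92699131 had a mean of 71.0 and a value of -0.14 (adjusted p 0.822) in the authors' deposited table. For the region 92632976 to 92633868, with the highest signal per kb of all member regions (94.5), the authors' deposited table gave -0.073 (adjusted p 0.917). These 3 strong sites inside the gene and the start region all lay within 1 standard error of 0.

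Weaker CDK6 regions spread more widely. The highest was 0.86 (92731245 to 92731685, mean 15.7, unadjusted p 0.107) and the lowest -0.71 (92754845 to 92755451, mean 12.3, unadjusted p 0.239) in the authors' deposited table. The 95% intervals of all 25 regions included both 0 and the tested median of 0.19.

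For comparison, the 72 regions in the 1 Mb on both sides of the extended CDK6 span had a median log2 fold change of 0.15, with 19 below 0, and chromosome 7 as a whole had 0.24. Among the 567 protein-coding genes with at least 20 regions, CDK6 had the 19th lowest median, -0.040, where the median of these genes was 0.22 and 29 of them lay below 0. The sign of the CDK6 median depended on the span, with -0.011 without extension and 0.017 with 25 kb. This ranking was chosen after the values were seen and has no test.

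**Figure D3:**
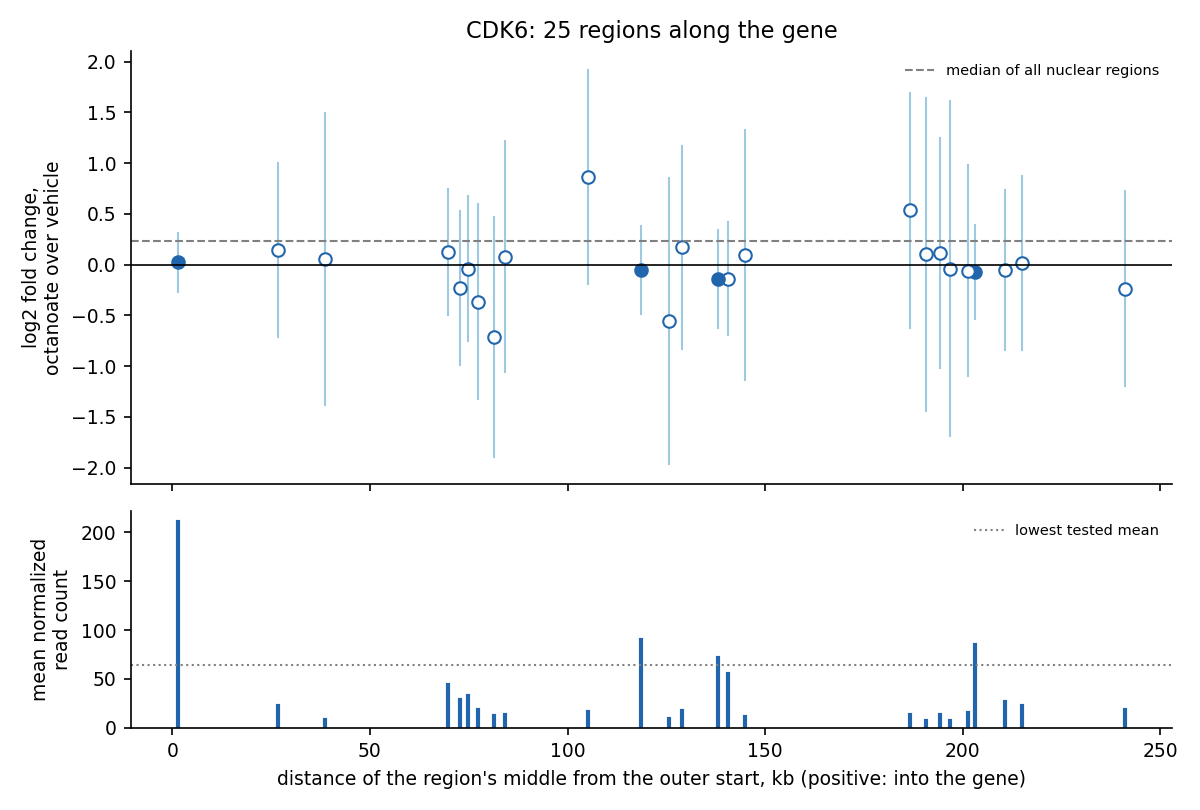
The upper panel plots the authors' log2 fold change of octanoate over vehicle for the 25 CDK6 regions, with 95% intervals, against the distance of each region's middle from the outer start in kb. Filled points were tested, and the lower panel gives the mean normalized read count with the lowest tested mean (63.8) dotted. The start region stands highest in signal at 211, and all intervals include 0.

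CDKN1A and CDKN1B encode p21, a classic p53 target, and p27, and had 4 regions, of which 3 were tested. The median over the 4 was -0.0022. CDKN1A spans 36676463 to 36687332 on chromosome 6. Its region over the inner start (36678408 to 36680813), which covers the printed window, had a mean of 64.6 and a log2 fold change of 0.10 (SE 0.26, adjusted p 0.890) in the authors' deposited table. At the outer start no region was listed within 1 kb. The other CDKN1A region, 8.95 kb upstream, had 0.36 at a mean of 14.1 in the authors' deposited table (SE 0.56). Neither value differed from 0 beyond its error.

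CDKN1B spans 12717368 to 12722369 on chromosome 12, and both of its regions were tested. The start region (12714164 to 12718273) is 4110 bp wide, overlaps the neighbouring gene GPR19 as well, and had a mean of 125. Its log2 fold change, -0.21 with a standard error of 0.19 (adjusted p 0.635) in the authors' deposited table, was the lowest of the tested member regions, with a 95% interval of -0.57 to 0.16. This was the 1 member region whose interval did not include the tested median of 0.19. Relative to that median its value was -0.39, with an unadjusted p of 0.0370 and an adjusted p of 1. At an unadjusted p under 0.05, 4.18% of tested regions passed after the same centring, 1.01% in the lower direction. Relative to the nuclear median its value was -0.43 (unadjusted p 0.0208, adjusted p 0.999), where 3.99% of tested regions passed at an unadjusted p under 0.05, 1.83% in the lower direction. The second region (12723708 to 12727135), within the span of APOLD1, had a mean of 139 and a log2 fold change of -0.10 (SE 0.18, adjusted p 0.827) in the authors' deposited table. Both CDKN1B values were below 0, and neither passed the test.

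The INK4 genes lie side by side on chromosome 9, CDKN2A from 21967752 to 21995324 and CDKN2B from 22002903 to 22009313, and had 3 regions, none tested, whose median was -0.16. CDKN2A makes the CDK4 and CDK6 inhibitor p16 from its inner start and the unrelated protein ARF, which stabilises p53, from its outer start. The region over the inner start (21974406 to 21975618) had a mean of 48.8 and a log2 fold change of -0.16 (SE 0.30, unadjusted p 0.599) in the authors' deposited table. The region over the outer start (21995145 to 21995826), which lies in both extended spans and overlaps the antisense gene CDKN2B-AS1, had a mean of 10.2 and a log2 fold change of 0.068 (SE 0.69) in the authors' deposited table. Per kb the inner start had 40.2 normalized reads and the outer start 15.0. All 4 annotated starts of the locus, of which 2 at CDKN2B lie 8 bp apart, were covered by a listed region.

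CDKN2B makes the related inhibitor p15. The region over its start (22008743 to 22009637) had the lowest log2 fold change of the 14 start regions, -0.59 (SE 0.41, unadjusted p 0.150), at a mean of 25.7 in the authors' deposited table. That is 0.66-fold with a 95% interval of 0.38 to 1.16. Its 95% interval included 0. Relative to the tested median it was -0.78 (unadjusted p 0.0582), and relative to the nuclear median -0.82 (unadjusted p 0.0457), with no adjusted p. After that second centring, 1.62% of all nuclear regions had an unadjusted p under 0.05, 0.809% in the lower direction.

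RB1, the substrate of the kinases and a repressor of E2F factors, spans 48303751 to 48481890 on chromosome 13 and had 5 regions. The start region (48303170 to 48304744) had a mean of 86.6 and a log2 fold change of 0.095 (SE 0.23, adjusted p 0.879) in the authors' deposited table. The 4 regions in the gene body, 3 of them also in the span of LPAR6, had means of 4.09 to 13.3 and log2 fold changes from -0.80 to 0.47 in the authors' deposited table. Each of these values was smaller in size than its own standard error (0.58 to 1.13). Near the inner annotated RB1 start no region was listed within 1 kb.

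All 10 genes had at least 1 region within 1 kb of a start, and 15 of 18 annotated starts had one. For the members the 5′ end of each span also counted as a start. The comparison over all genes uses starts of the RefSeq promoter table alone, which has none for CCND1 or CCND2. The 14 start regions had a median log2 fold change of 0.045, against 0.14 in the 12032 regions within 1 kb of any protein-coding start in the RefSeq table. Their order against the other member regions turned with the limit: 0.045 against 0.036 in the other 42 within 1 kb, but 0.021 against 0.056 within 2 kb and 0.021 against 0.065 for regions on a start. Of the 14, 4 were below 0, against 24.5% of those 12032 regions, and 13 lay below the median of all nuclear regions, against 68% of them, the exception being a weak CCND3 region at 0.60 with a standard error of 0.93 in the authors' deposited table. Start regions were stronger, with a median of 41.4 normalized reads against 15.7 in the other member regions, and wider, with 1118 against 499 bp. Per kb the medians were 35.3 and 32.0 normalized reads.

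**Figure D4:**
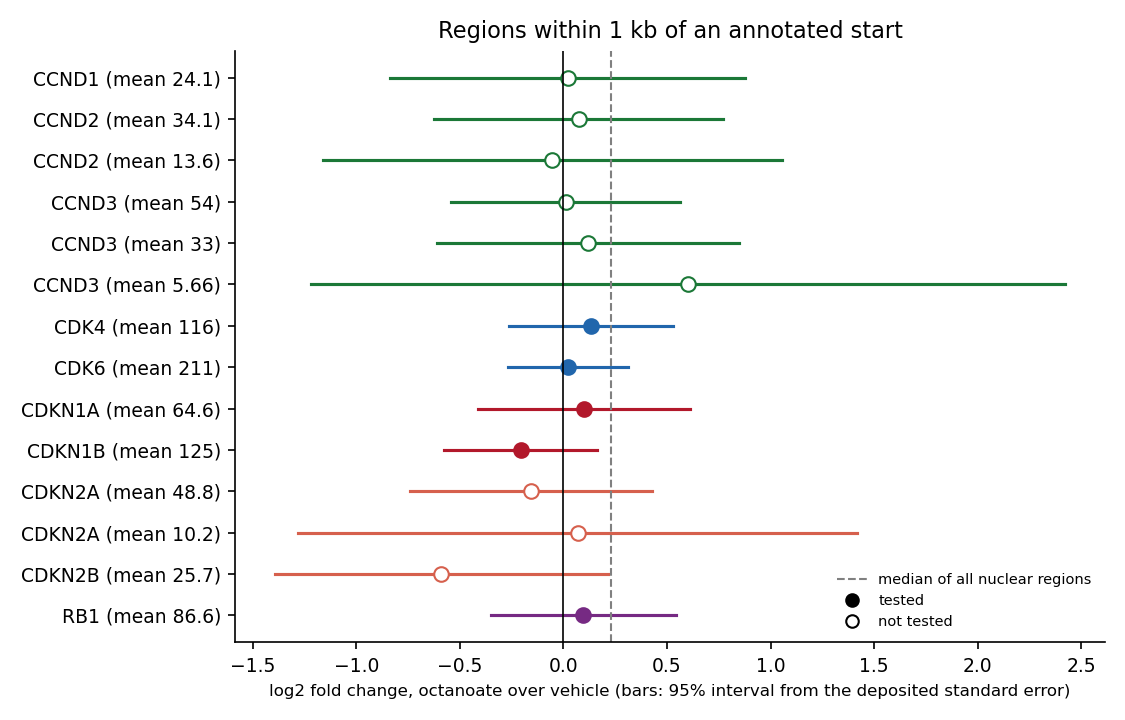
Each row is 1 of the 14 start regions with its mean normalized read count, and the x axis is the authors' log2 fold change of octanoate over vehicle with its 95% interval. Filled points were tested, and the dashed line is the median of all nuclear regions (0.23). All 14 intervals include 0, with the narrowest at CDK6 and the widest at the weak CCND3 region.

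Further genes of the G1 to S transition were taken as a list of 16: the cyclins CCNE1, CCNE2 and CCNA2, CDK2, the inhibitors CDKN1C, CDKN2C and CDKN2D, the RB1 relatives RBL1 and RBL2, the factors E2F1, E2F2, E2F3, E2F4, TFDP1 and TFDP2, and the phosphatase CDC25A. They had 53 regions, 16 of them tested. None passed an adjusted p under 0.05 in the authors' deposited table (DESeq2), against 1.02% of tested regions, all of them higher with octanoate. At an unadjusted p under 0.05 it was 0 of the 53, against 3.76% of nuclear regions and 14.9% of tested regions. Their median log2 fold change was 0.15 and 14 of the 53 were below 0, against 0.039 and 24 of 56 for the 10 genes. The smallest p was at CCNE1, the cyclin partner of CDK2, where a region with a mean of 14.7 had a log2 fold change of 1.09 (SE 0.57, unadjusted p 0.0550) in the authors' deposited table. RBL1 followed with 0.71 (unadjusted p 0.0969) and TFDP2 with 0.76 (unadjusted p 0.101) in the authors' deposited table. Of the list's genes 3 of 16 had a median below 0, and 6 of the 10 member genes did. With spans extended by 25 kb it was 4 of 10, as the medians of CCND1 and CDK6 became 0.021 and 0.017. The share over all genes is not given beside these counts, and medians of genes with few regions are uncertain.

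The precision of the table sets what could be seen. For an unadjusted p of 0.05, tested member regions needed an observed change between 1.22-fold and 1.43-fold, and the other member regions between 1.47-fold and 4.62-fold. Smaller observed changes could not reach that p with these standard errors, which rest on 2 libraries per group. An adjusted p under 0.05 needed larger ones, and true changes above these limits could also be missed. The limit of 10 kb also decides which regions count. Just inside it lay a CDK4 region at 9.50 kb from the gene, with -0.25 (SE 0.55), and just outside it another at 11.2 kb with -0.11 (SE 0.35), in the authors' deposited table. A strong region 15.2 kb past the CCND2 end (4320539 to 4322013), within the neighbouring gene TIGAR, had a mean of 187 and a log2 fold change of 0.50 (SE 0.16, adjusted p 0.0728) in the authors' deposited table. Relative to the tested median its unadjusted p was 0.0460 and its adjusted p 1. It lies outside the rule, did not pass the threshold, and was chosen with its values known.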

How the data were processed

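ATAC-seq regions were compared between 2 octanoate and 2 vehicle libraries of A375 cells, grouped by the sample titles. Per the submitters' processing notes, which give names without settings, the tools included Trim Galore, cutadapt, Bowtie2, Picard, MACS2, featureCounts, DESeq2 and bedtools 2.29.1, with build hg38. The merging of peaks, the scaling and any Tn5 offset of the reads are not given in the sources used here.

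Per the file headers, the deposited signal is a normalized read count averaged across libraries. The deposited log2 fold change, its standard error, the Wald score, the two-sided p-value and the adjusted p-value are the authors' own, and there were 0 columns per library. The adjusted p equalled Benjamini-Hochberg over 11185 tested regions and was listed as 1 elsewhere, which is treated here as not tested.

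Computed here with Python 3.11.15 and pandas 2.3.3 were overlaps with RefSeq spans (GRCh38.p14), medians, 95% intervals (1.96 standard errors) and adjusted p after subtracting a median. Starts were the 5′ end of the span and those of the RefSeq promoter table, and those of CCND1 and CCND2 were taken at the lower end of the span. Adjustment and centring were tested on simulated data.

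Members, lists and rules were chosen with earlier results of these data known. Named regions were each gene's strongest region, the one nearest its start, and the highest and lowest tested values. For the further list the rule named the 3 smallest p. Other regions were named after their values were seen.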

Additional observations from a re-analysis of the deposited data

How the results depend on the processing

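The count of 0 member regions past the threshold stayed 0 after subtracting the median of tested or of all nuclear regions, with spans not extended or extended by 25 kb, with midpoints required inside the span, with Benjamini-Hochberg over all nuclear regions and at an adjusted p under 0.1. For the further list the count was also 0 under these alternatives, of which centring on all nuclear regions was not run. The member median of 0.039 was 0.019 with no extension, 0.073 with 25 kb, -0.016 in tested regions and, added after the data were seen, 0.095 without CDK6. It was -0.15 and -0.19 after the tested and the nuclear median were subtracted. The start region median of 0.045 was 0.021 within 2 kb or on a start.

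Centring turned the sign of 7 of the 14 named regions by construction, since the subtracted median exceeded their values. On the tested median they became -0.17 (CCND1 start), -0.18 (CCND3), -0.050 and -0.053 (CDK4), -0.17 (CDK6 start), -0.086 (CDKN1A) and -0.092 (RB1). On the nuclear median they became -0.21, -0.22, -0.092, -0.096, -0.21, -0.13 and -0.13 in the same order. None had an adjusted p under 0.05 under any alternative run.

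No paired analysis was possible because single libraries have no column in the table. Count tests, other scalings and fits without 1 replicate could not be made either, and each library's depth is unknown.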
